A study of Homo sapiens with 3 samples.

Results

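The genes described here code for the machinery that copies DNA in S phase, and were taken by symbol from a list of 43. They are the MCM2 to MCM7 helicase genes, their loaders and activators, the sliding clamp and its loader, the replicative polymerases with primase, the lagging-strand enzymes, the RPA proteins, enzymes of deoxynucleotide supply and the chromatin assembly factor. All 43 were found among the 56632 Ensembl gene IDs of the deposited tables, and all 43 belonged to the 13312 genes measured, meaning those with a scaled count (CPM) of at least 1 in at least 1 library. The cells were MCF10Ca1h, an established human breast cancer line grown in DMEM/F12 with horse serum. There were 3 libraries of total RNA, 1 for each group: untreated cells (NT), cells given the PADI4 inhibitor GSK484 for 72 h, and a culture kept for 72 h with a control compound (CON). The control compound is GSK107 in the treatment text and GSK106 in the name of its table, no dose is given, and no time is given for NT. The series title places the study in the role of PADI4 in breast cancer stem cells. No group had replicates, so no comparison could be tested and all differences below are between single libraries of 1 cell line.

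Before S phase the origin recognition complex, CDC6 and CDT1 load the MCM helicase onto DNA, and geminin (GMNN) blocks CDT1 once replication has begun. CDC45 and the GINS complex then turn the MCM ring into the active helicase, DNA polymerase alpha with primase starts each strand, and polymerases delta and epsilon extend it on the PCNA clamp, which the RFC complex loads. Many of these genes are known targets of E2F transcription factors and are expressed mostly in cycling cells. In bulk RNA, fewer cycling cells and less RNA per cell cannot be told apart.

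Because these genes are known for E2F control, their promoters were read for E2F-type letters. The windows come from the RefSeq promoter table of GRCh38.p14, each from 250 bases before to 50 after the gene's start. A window was matched for 37 of the 43 genes, 8 of them with several windows, of which the one listed first was used. MCM4, MCM5, GINS4, POLD3, RPA2 and RPA3 had none. The letters TTTCGCGC, TTTGGCGC, TTTCCCGC or TTTGCCGC, on either strand, were found in 17 of 37 windows (45.9%), against 908 of 27305 windows of all genes (3.33%) and 703 of 15843 of protein-coding genes (4.44%). CCAAT, on either strand, was in 21 of 37 (56.8%) against 35.7% of all windows and 36.4% of those of protein-coding genes. TTTGAA was in 1 of 37 (2.70%) against 15.4% and 12.1%, and the window that held it was that of RRM1. The windows compared were not matched for base composition, on which such shares depend. TTTCGCGC can overlap a match on the other strand, as it does in MCM2. Such a match describes letters and is no evidence that a factor binds. Shown here, up to 20 bases after the start, are RFC1, POLA1 and PRIM1, which differed most among the genes with a window, and MCM2, MCM6 and PCNA, which differed little. Capitals mark E2F-type and CCAAT letters.
RFC1 promoter (chr4:39366343-39366612, minus strand): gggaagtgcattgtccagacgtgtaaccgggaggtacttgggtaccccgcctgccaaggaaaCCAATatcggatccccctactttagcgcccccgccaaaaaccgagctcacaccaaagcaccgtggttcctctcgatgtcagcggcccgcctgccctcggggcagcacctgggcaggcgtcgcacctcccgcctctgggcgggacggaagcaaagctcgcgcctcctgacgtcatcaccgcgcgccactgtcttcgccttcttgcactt
POLA1 promoter (chrX:24693668-24693937, plus strand): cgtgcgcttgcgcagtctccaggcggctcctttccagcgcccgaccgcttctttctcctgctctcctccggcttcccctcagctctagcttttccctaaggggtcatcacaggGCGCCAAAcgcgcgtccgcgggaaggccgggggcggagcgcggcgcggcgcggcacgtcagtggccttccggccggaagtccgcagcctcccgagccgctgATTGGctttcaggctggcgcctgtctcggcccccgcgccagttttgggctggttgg
PRIM1 promoter (chr12:56752304-56752573, minus strand): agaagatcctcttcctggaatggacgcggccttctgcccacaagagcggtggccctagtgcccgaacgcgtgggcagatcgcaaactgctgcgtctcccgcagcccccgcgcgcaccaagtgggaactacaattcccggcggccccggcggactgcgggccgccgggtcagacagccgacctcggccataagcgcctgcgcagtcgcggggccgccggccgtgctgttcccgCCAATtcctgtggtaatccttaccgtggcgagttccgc
MCM2 promoter (chr3:127598161-127598430, plus strand): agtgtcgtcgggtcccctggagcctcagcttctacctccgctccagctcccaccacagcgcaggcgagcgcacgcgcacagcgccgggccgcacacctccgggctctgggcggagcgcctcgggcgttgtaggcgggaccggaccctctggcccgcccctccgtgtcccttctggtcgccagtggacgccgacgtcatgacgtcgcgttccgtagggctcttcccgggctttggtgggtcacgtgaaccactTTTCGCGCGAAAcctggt
MCM6 promoter (chr2:135876424-135876693, minus strand): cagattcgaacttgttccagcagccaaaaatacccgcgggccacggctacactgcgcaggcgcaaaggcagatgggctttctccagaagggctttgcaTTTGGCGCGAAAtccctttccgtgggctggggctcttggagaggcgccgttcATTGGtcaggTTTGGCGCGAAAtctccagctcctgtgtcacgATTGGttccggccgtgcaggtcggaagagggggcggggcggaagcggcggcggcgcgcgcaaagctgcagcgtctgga
PCNA promoter (chr20:5126603-5126872, minus strand): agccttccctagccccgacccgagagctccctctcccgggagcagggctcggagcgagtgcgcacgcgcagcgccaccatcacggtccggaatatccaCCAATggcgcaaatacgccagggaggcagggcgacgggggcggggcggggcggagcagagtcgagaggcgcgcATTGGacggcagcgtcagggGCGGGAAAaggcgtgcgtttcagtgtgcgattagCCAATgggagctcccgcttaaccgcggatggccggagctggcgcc
In MCM6 there are 2 pairs of overlapping E2F-type matches, which begin at -152 and -90 relative to the start, and PCNA has 1 match at -59. POLA1 holds 1 match at -137, while RFC1 and PRIM1 hold a CCAAT and no E2F-type letters. Of the 4 genes with a window that passed the rule of size given below in any comparison (RFC1, POLA1, PRIM1 and PRIM2), 1 had an E2F-type match, against 16 of the other 33.

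The libraries held 70555229 (NT), 92980847 (CON) and 77220120 (GSK484) expected counts, the depth behind each value. The epithelial genes EPCAM, CDH1, KRT8 and KRT18 were at 177 CPM or more in every library. The defining markers PTPRC, CD3E, COL3A1, DCN and ADIPOQ were at 0 in all 3. CD14 and COL1A1 reached at most 9.15 CPM, CDH5 1.57, and PDGFRB, VWF, PLIN1, HBB and HBA1 at most 0.54, while PECAM1 was not analysed here. The expression of PADI4, the enzyme that GSK484 inhibits, was 0.66 CPM in NT, 0.68 in CON and 0.60 under GSK484, below the minimum for measured genes. With 47 to 62 counts its intervals were wide (log2 fold -0.75 to 0.40 for GSK484 against CON), so a difference in PADI4 could be neither seen nor excluded. Per length, in the deposited TPM, PADI4 had another order, at 0.37 in NT, 0.51 in CON and 0.70 under GSK484. Its estimated effective length was 2079 bases in NT, 1433 in CON and 1007 in GSK484. Replication genes lay between 14 and 451 CPM, with at least 1094 expected counts each in every library. Their values are therefore known to within a few percent as far as counting goes. The counting interval given with a log2 fold is an exact 95% interval that covers this error only, not the spread between cultures or library preparations.

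The treated libraries, GSK484 and CON, were both taken at 72 h. Replication gene expression was close to equal in both libraries. The median log2 fold was -0.04, against -0.01 over all measured genes, and the folds ran from -0.19 (RFC2) to 0.38 (RFC1). The rule of size called a gene different if the larger CPM exceeded the smaller by 25% (0.32 on the log2 scale) and was at least 1, and if no difference lay outside the counting interval. By this rule 2 replication genes, RFC1 and POLA1, were higher in GSK484 (4.65%) and 0 were lower, where 8.92% of all measured genes were higher and 4.44% lower. No replication gene reached a 2-fold difference, as 0.466% of measured genes did. Without the size requirement, 8 were higher, 19 lower and 16 within counting error. The lower share was 44.2%, against 27.3% of all measured genes and 31.6% of the 9239 of at least 10 CPM. It was 33.4% of the 4537 measured genes that lie in the interquartile range of the replication genes' GC content. The higher share was 18.6%, against 26.8%, 30.5% and 16.3% in the same order. Such shares depend on depth, and in CON the median was 81.3 CPM for replication genes and 21.2 for all measured genes.

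**Figure D1:**
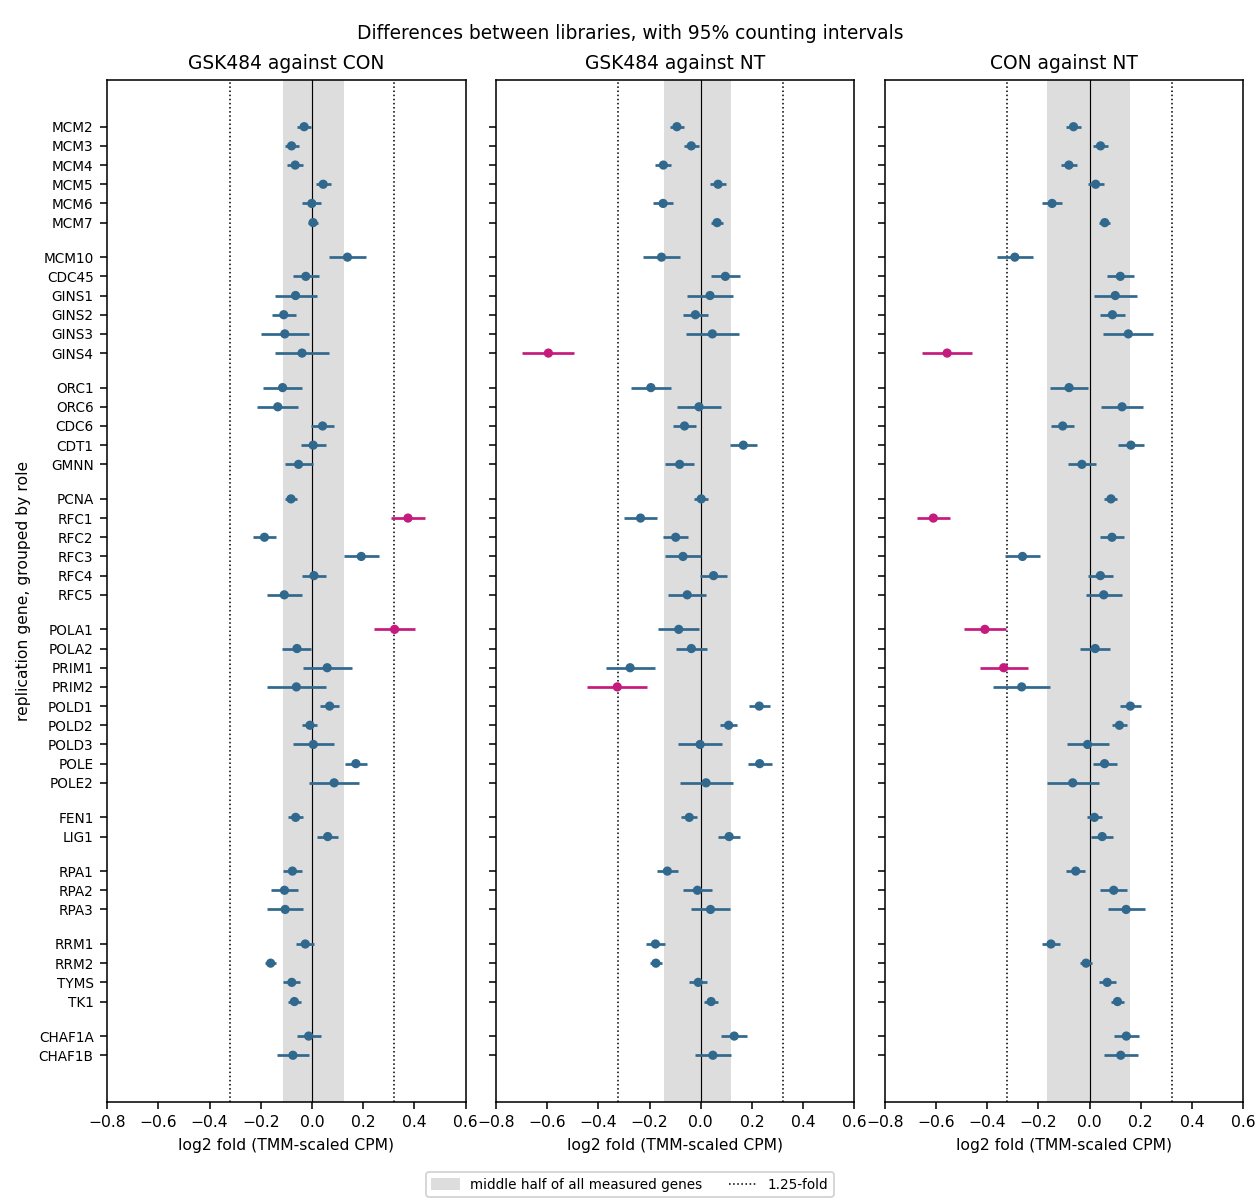
Log2 fold of each of the 43 replication genes (rows, grouped by role) in the 3 comparisons of single libraries, where lines are 95% counting intervals, grey bands the interquartile range of all measured genes, dotted lines the minimum size of the rule and pink points genes past the rule of size. RFC1 and POLA1 pass it for GSK484 against CON, GINS4 and PRIM2 for GSK484 against NT, and GINS4, RFC1, POLA1 and PRIM1 for CON against NT, while the other points lie between the dotted lines.

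The comparisons with untreated cells share libraries with the first and with each other, so they are not independent. In GSK484 against NT the median log2 fold of the replication genes was -0.02, against -0.00 over all measured genes. Of the 43, 0 were higher by the rule, where 5.0% of measured genes were, and 2 (GINS4 and PRIM2, 4.65%) were lower, where 7.41% were. In CON against NT the median was 0.04, against 0.03 over all measured genes, with 0 higher (background 6.83%) and 4 lower (GINS4, RFC1, POLA1 and PRIM1, 9.30%; background 14.5%). The share of measured genes past a 2-fold difference was 0.533% for GSK484 against NT and 1.67% for CON against NT, and no replication gene was among them. Over the 3 libraries, the highest CPM of a replication gene was a median of 1.09 times its lowest, and for 24 of 43 genes it was under 1.1 times. It reached the size of the rule for 5 genes, all named above.

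The 6 MCM helicase subunits form 1 ring, and their expression differed by 1.11-fold at most in any comparison. MCM2 was at 268 CPM in NT, 256 in CON and 251 under GSK484. MCM5 was at 210, 213 and 220 CPM in the same order, and MCM7 at 431, 450 and 451. So MCM2 was lowest and MCM5 highest in GSK484 by a few percent, and MCM7 was level in GSK484 and CON. The log2 fold of GSK484 against CON was -0.03 (counting interval -0.06 to -0.00) for MCM2, 0.04 (0.01 to 0.07) for MCM5 and 0.00 (-0.02 to 0.03) for MCM7. MCM3 (-0.08) and MCM4 (-0.07) were lower beyond counting error and MCM6 was at -0.00, but in TPM all 6 were higher in GSK484 than in CON, with a median of 0.11 where all measured genes had 0.10. MCM6 was at 150 CPM in NT and 135 in both other libraries, a log2 fold of -0.15 in each case, and MCM4 reached -0.15 in GSK484 against NT. With the trend with GC content and length removed, MCM6 was at -0.01 in GSK484 and 0.08 in CON against NT. MCM4 was then at -0.10 in GSK484 against NT. Per length, in the deposited TPM, MCM7 was the most abundant subunit (212 in NT, 203 in CON and 222 under GSK484) and MCM6 the least (52.4, 45.8 and 49.1).

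MCM10, CDC45 and the 4 GINS subunits activate the loaded helicase. MCM10 was at 45.0 CPM in NT, 36.7 in CON and 40.4 under GSK484, and so lowest in CON. Its log2 fold was 0.14 for GSK484 against CON (interval 0.07 to 0.21) and -0.29 for CON against NT (-0.36 to -0.22). With the trend with GC content and length removed these were 0.07 and -0.11. CDC45, at 68.6, 74.5 and 73.3 CPM, and GINS1, GINS2 and GINS3 were instead lowest in NT or GSK484, with log2 folds of -0.11 to -0.02 for GSK484 against CON. GINS4 had the lowest fold of the replication genes in GSK484 against NT. Its CPM was 26.6 in NT, 18.1 in CON and 17.6 under GSK484, so both 72 h libraries were low and close to each other. The log2 fold was -0.60 for GSK484 against NT (interval -0.70 to -0.49) and -0.56 for CON against NT (-0.65 to -0.46), and GSK484 against CON was within counting error (-0.04). GINS4 is 1 of 8 replication genes whose counts were divided with other genes, with MCM7, ORC6, RFC5, PRIM1, POLD1, TYMS and CHAF1A, so its value is uncertain. Its estimated effective length also changed, from 1861 bases in NT to 3071 in CON and 3175 in GSK484, and its TPM went from 16.8 to 6.37 and 6.49. The highest effective length of GINS4 was 1.71 times its lowest, where no other replication gene exceeded 1.13 times.

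Origin licensing genes differed little. CDC6 was at 104 CPM in NT, 96.5 in CON and 99.3 under GSK484, and within counting error between GSK484 and CON (0.04). CDT1 was at 71.4, 79.9 and 80.1 CPM, lower in NT than in both 72 h libraries, whose difference was within counting error (log2 fold 0.00, interval -0.04 to 0.05). Against NT, CDT1 had log2 folds of 0.17 in GSK484 and 0.16 in CON. With the trend with GC content and length removed these were 0.00 and 0.01. GMNN, the CDT1 inhibitor, was at 66.7, 65.3 and 63.0 CPM, with a log2 fold of -0.05 for GSK484 against CON. The origin recognition genes ORC1 (-0.11, interval -0.19 to -0.04) and ORC6 (-0.13, interval -0.21 to -0.05) were lower in GSK484 than in CON beyond counting error. ORC1 was lower than in NT too (-0.19), while ORC6 was level with NT (-0.01).

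PCNA, the sliding clamp, was at 305 CPM in NT, 324 in CON and 306 under GSK484, with a log2 fold of -0.08 for GSK484 against CON (interval -0.11 to -0.06). GSK484 and NT did not differ beyond counting error (0.00). The 5 subunits of its loader did not move together. RFC1, the large subunit, was at 58.5 CPM in NT, 38.3 in CON and 49.7 under GSK484, lowest in CON and between the others in GSK484. The log2 fold was 0.38 for GSK484 against CON (interval 0.31 to 0.44), -0.61 for CON against NT (-0.68 to -0.55) and -0.24 for GSK484 against NT (-0.30 to -0.17). RFC3 had the same order at 46.4, 38.7 and 44.2 CPM, with 0.19 for GSK484 against CON. RFC2 had another order, at 93.5, 99.3 and 87.3 CPM, with -0.19 (interval -0.23 to -0.14), the lowest fold of the replication genes in that comparison. RFC4 (0.01) was within counting error and RFC5 (-0.11) was lower. RFC1 did not pass the rule once the trend with GC content and length was removed, at 0.24 for GSK484 against CON and -0.31 for CON against NT. RFC3 was then at 0.08 and -0.02 in the same comparisons. For GSK484 against CON, RFC2 was at -0.11 with the trend removed and -0.04 in TPM, and PCNA at -0.03 and 0.03.

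POLA1 codes for the catalytic subunit of polymerase alpha, and PRIM1 and PRIM2 for primase. POLA1 was at 35.5 CPM in NT, 26.8 in CON and 33.5 under GSK484, lowest in CON. Its log2 fold was 0.32 for GSK484 against CON (interval 0.24 to 0.40), just past the minimum of the rule, and -0.41 for CON against NT. With the trend removed these were 0.18 and -0.09. POLA2, the regulatory subunit, was at 60.4, 61.3 and 58.9 CPM, with -0.06 for GSK484 against CON. PRIM1 was at 25.9 CPM in NT, 20.5 in CON and 21.4 under GSK484, and PRIM2 at 17.6, 14.6 and 14. Both primase genes were thus highest in NT, and GSK484 and CON were within counting error of each other (0.06 for PRIM1 and -0.06 for PRIM2, the latter -0.29 with the trend removed). With the trend removed, PRIM1 in CON against NT went from -0.34 to -0.22 and PRIM2 in GSK484 against NT from -0.33 to -0.15, both short of the rule.

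POLE and POLD1, the catalytic subunits of polymerases epsilon and delta, were highest in GSK484. POLE was at 89.5 CPM in NT, 93.2 in CON and 105 under GSK484, with a log2 fold of 0.17 against CON (interval 0.13 to 0.22) and 0.23 against NT (0.18 to 0.28). POLD1 was at 122, 136 and 143 CPM, with 0.07 against CON and 0.23 against NT. These 2 genes had the highest folds of the list for GSK484 against NT, both short of the rule. With the trend removed POLE kept 0.19 against CON and 0.20 against NT, and POLD1 had 0.09 and 0.07. Their partner subunits POLD2 (-0.01), POLD3 (0.01) and POLE2 (0.09) were within counting error for GSK484 against CON.

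FEN1 and LIG1 finish lagging-strand fragments. FEN1, the flap endonuclease, was lower in GSK484 than in CON by a small margin (-0.06), and LIG1, the ligase, higher (0.06, at 113 CPM in NT, 117 in CON and 122 under GSK484). The single-stranded DNA binding genes RPA1 (-0.08), RPA2 (-0.11) and RPA3 (-0.10) were all lower in GSK484 than in CON beyond counting error, but in TPM their median was 0.01, where that of all measured genes was 0.10. Against NT RPA1 alone was lower beyond counting error (-0.13). Correcting for GC content and length gave a median of -0.04 for the 3 genes in GSK484 against CON.

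Among the genes of nucleotide supply, RRM2, the small subunit of ribonucleotide reductase, was at 431 CPM in NT, 426 in CON and 381 under GSK484. GSK484 was lowest, and the other libraries were within counting error of each other (-0.01, interval -0.04 to 0.01). The log2 fold of GSK484 was -0.16 against CON (interval -0.18 to -0.14) and -0.18 against NT (-0.20 to -0.15), and with the trend removed -0.13 and -0.14. In TPM, at 278, 244 and 235, CON lay nearer to GSK484 than to NT. RRM1, the large subunit, was at 182, 164 and 161 CPM, with -0.03 against CON. Thymidylate synthase (TYMS, -0.08) and thymidine kinase (TK1, -0.07) were lower in GSK484 than in CON, and in TPM TK1 was at 232 in NT, 228 in CON and 237 under GSK484. CHAF1A (-0.01) and CHAF1B (-0.07), which deposit histones behind the fork, were highest in CON, at 86.9 and 48.2 CPM.

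**Figure D2:**
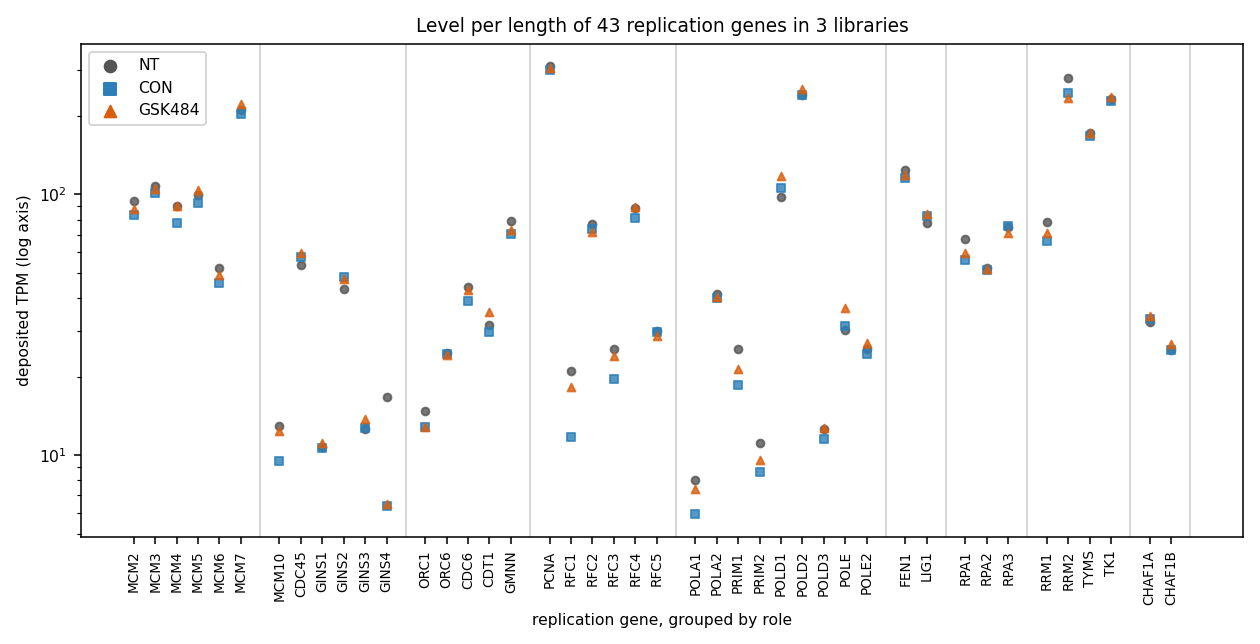
Deposited TPM (log axis) of the 43 replication genes, grouped by role, with 1 symbol per library (NT, CON and GSK484). Symbols of a gene mostly overlap, while GINS4 in NT (16.8, against 6.37 and 6.49) and RFC1 in CON (11.7, against 21.0 in NT and 18.2 in GSK484) lie apart.

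Scale changed the sign of many small folds. In deposited TPM the median log2 fold of the replication genes for GSK484 against CON was 0.08 (log2 of TPM + 0.1), and 21 of 43 folds had the other sign than in CPM. The median of all measured genes was at 0.10 on this scale, a shift of just over 0.1 from the CPM scale, so the replication genes were below it by 0.02 in TPM and by 0.03 in CPM. So a median direction of the list, or of a role within it, depended on the scale. Across all measured genes, 1187 were higher and 591 lower by the rule for GSK484 against CON in CPM, 1657 and 359 in TPM, and 662 and 552 with the trend removed. For CON against NT these were 909 higher and 1933 lower in CPM, 479 and 2384 in TPM, and 587 and 761 with the trend removed. For the TPM numbers only the size of the fold came from TPM, while the counting interval and the minimum stayed those of the CPM scale. RFC1 (0.63) and POLA1 (0.32) were higher in GSK484 than in CON in TPM too, and MCM10 (0.39) passed the size of the rule on this scale.

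Base composition moved with the differences from NT. In CON against NT, the 21 replication genes below the list's median GC content of 48.6% had a median log2 fold of -0.05, and the 22 at or above it 0.06. In GSK484 against NT these medians were -0.07 and 0.02, and in GSK484 against CON they were -0.03 and -0.05. Across the 43 genes, Pearson's r of log2 fold and GC content was 0.51 (Spearman's rho 0.55) for CON against NT and 0.53 (0.55) for GSK484 against NT. Over 13023 measured genes of known GC content r was 0.45 and 0.35. For GSK484 against CON r was -0.14 across the 43 genes and -0.26 over the measured genes. These are correlations across genes of the same libraries, given as a description. RFC1 (41.5% GC), POLA1 (42.7%), PRIM1 (40.7%) and PRIM2 (37.6%) are all GC-poor, whereas GINS4 (49.9%) is not. The part of base composition in these differences was not tested. After removal of the joint trend with GC content and length, the replication genes had a median of -0.01 in each comparison and GINS4 kept -0.56 against NT in GSK484 and -0.55 in CON.

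**Figure D3:**
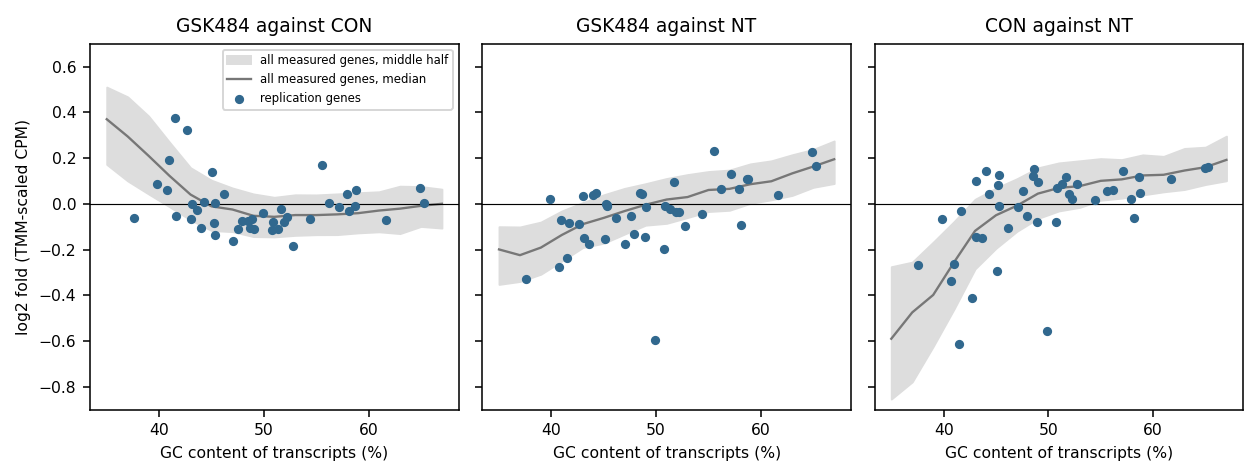
Log2 fold of the 43 replication genes (points) against the GC content of their transcripts in percent, for the 3 comparisons, over the median (line) and interquartile range (band) of all measured genes in GC bins. In both comparisons with NT the points tend to rise with GC content, as the line does, with scatter about it. GINS4 (-0.60 and -0.56) lies far below the line there, and RFC1 (-0.61) is low in CON against NT. In GSK484 against CON the points go with GC content only weakly (r -0.14).

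A further list of 58 genes of the same pathway gave the setting, with 57 measured and UHRF1 not analysed here. For GSK484 against CON 7 were higher by the rule (12.3%, where 8.92% of all measured genes were) and 1 lower (1.75%, background 4.44%), with a median log2 fold of 0.01. For CON against NT 0 were higher (background 6.83%) and 15 lower (26.3%, background 14.5%), with a median of -0.02. For GSK484 against NT 0 were higher (background 5.0%) and 6 lower (10.5%, background 7.41%), with a median of -0.06. The median GC content of this list was 44.6%, against 49.3% for all measured genes, and the background was not matched for it. With the trend with GC content and length removed, the list's median log2 folds were -0.02, -0.01 and -0.02 in the same order. ATAD5, which unloads PCNA, was at 10.8 CPM in NT, 5.13 in CON and 7.07 under GSK484 (0.46 for GSK484 against CON). WDHD1, a fork adaptor, was at 47.7, 31.2 and 41.5 CPM (0.41), and TOPBP1, needed for origin firing, at 72.1, 47.0 and 59.7 (0.34). All 3 are GC-poor, lay in the order of RFC1 and POLA1, and had 0.10, 0.20 and 0.18 with the trend removed, all short of the rule. The nuclease gene DNA2 (0.40) and RRM2B (0.36), a ribonucleotide reductase subunit, were also higher than in CON, but short of the rule with the trend removed (0.16 and 0.15), while DBF4 (0.32), which activates the CDC7 kinase, and RBL1 (0.28) stayed short of the rule. TOP2A, which untangles DNA after replication, was at 218 CPM in NT, 114 in CON and 167 under GSK484, with 0.55 against CON, or 0.33 with the trend removed. The proliferation marker MKI67 had the same order, at 341, 203 and 319 CPM, with log2 folds of 0.65 for GSK484 against CON and -0.75 for CON against NT. Removing the trend left 0.59 and -0.59. So CON was low in MKI67 and TOP2A, while MCM2, MCM5 and PCNA in CON lay within 1.06-fold of NT. These 3 do not stand for the whole list. In CON against NT, RFC1 (-0.61), GINS4 (-0.56), POLA1 (-0.41) and PRIM1 (-0.34) were low. Beyond counting error, 20 of the 43 replication genes were higher in CON than in NT and 14 lower.

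**Figure D4:**
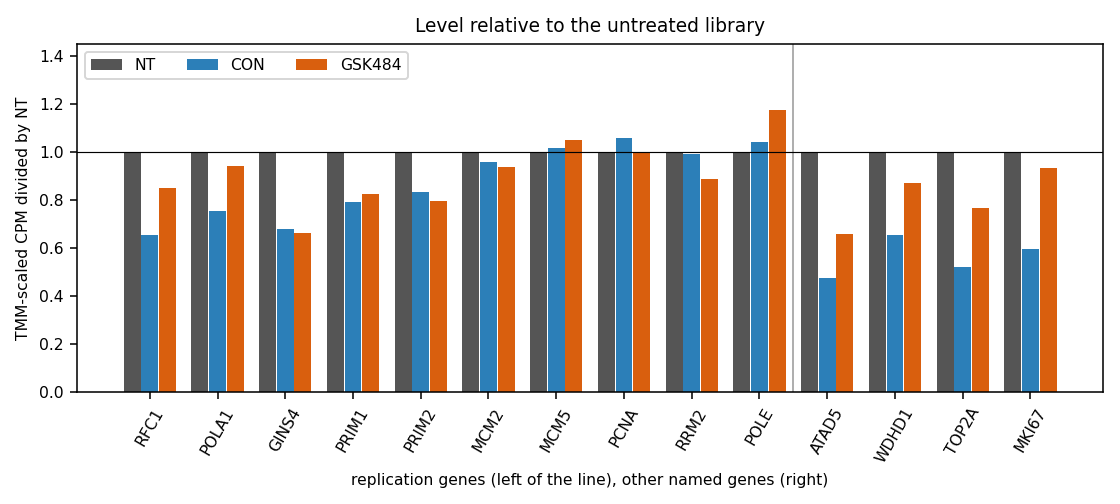
CPM of each gene divided by its value in NT (bars, NT set to 1, axis from 0), for NT, CON and GSK484, with replication genes to the left of the line and other named genes to the right. CON is lowest for RFC1, POLA1, ATAD5, WDHD1, TOP2A and MKI67, while MCM2, MCM5 and PCNA differ little and RRM2 is lowest and POLE highest in GSK484.

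E2F1, a transcription factor that acts on many replication genes, was at 38.8 CPM in NT, 43.6 in CON and 39.6 under GSK484 (-0.14 against CON). E2F8, a repressor of the same family, was at 5.57, 4.83 and 3.44 CPM, and was lower in GSK484 than in CON (-0.49, interval -0.72 to -0.27) and than in NT (-0.70, interval -0.93 to -0.47). With the trend removed it kept -0.50 and -0.62. CCNE2, a cyclin of S phase entry, was at 12.9, 7.35 and 8.0 CPM, so both 72 h libraries were low, and GSK484 against CON was within counting error (0.12). Its counts were divided with other genes. With the trend removed, CCNE2 was at -0.07 for GSK484 against CON, and against NT at -0.52 in GSK484 and -0.45 in CON. DUT (-0.20), an enzyme of thymidylate supply, and the histone chaperone gene ASF1B (-0.26) were lower in GSK484 than in CON, short of the rule, as was DNMT1 by a small margin (-0.04).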

How the data were processed

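RNA from MCF10Ca1h cells was sequenced after a stranded total RNA library kit, paired-end, per the labels' protocols. Per the submitters' processing notes RSEM and hg19 were used; the sources used here give no aligner, annotation or strand setting. The deposited expected counts are estimated reads per gene, not normalized, per the file headers. TPM values, also deposited, were divided by effective length and scaled by the authors, per the file headers.

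Expected counts were scaled to CPM with TMM factors from edgeR 4.0.16 (R 4.3.3), and rounded to whole numbers for the factors and intervals. Log2 folds used a prior count of 0.5. Intervals were exact conditional binomial (Clopper-Pearson), from scipy 1.17.1. The intervals were tried only on simulated Poisson counts, for which they are built, so this could not show how they fare with divided reads. They cover counting error only, and PCR copies cannot be told from molecules. With 1 library per group there was no test. A count was called divided with other genes where it was not whole within 0.005 in some library. GC content came from GENCODE 29 transcripts, and its trend with length was a polynomial of degree 3. Alternatives were total-count and DESeq2 1.42.0 scaling, TPM, a prior count of 2, minimums of 10 CPM or none, and whole-count genes.

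The replication genes and lists, the rule of size and the motifs were chosen with earlier results of these data known. Any replication gene could be named; other pathway genes were the 2 per group with the largest fold between GSK484 and CON, counting error excluded, plus TOP2A, E2F1 and CCNE2, with MKI67 and PADI4. Symbols were matched by gene ID. Some results of listed genes are not reported here.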

Additional observations from a re-analysis of the deposited data

How the results depend on the processing

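The results above rest on 1 library per group, and depth limits the precision of single genes only. No paired analysis was possible because each group had 1 library. Total-count scaling, DESeq2 size factors, a prior count of 2, a minimum of 10 CPM and no minimum moved no list median by more than the median half-width of the counting intervals and no count by over 1.5 times. Total-count scaling still turned the sign of the median for GSK484 against CON, from -0.039 to 0.002, and took that for CON against NT from 0.042 to 0.001. In deposited TPM the median log2 fold went to 0.078 for GSK484 against CON and to -0.084 for CON against NT, where the medians of all measured genes were 0.097 and -0.083. The count of lower genes in TPM was 7 for CON against NT and 1 (GINS4) for GSK484 against NT. After removal of the trend with GC and length, the median for CON against NT was -0.014, 0 genes were higher for GSK484 against CON, and 1 gene (GINS4) was lower in each comparison with NT. With whole-count genes alone, fewer genes being compared (35), 2 were lower for CON against NT (RFC1 and POLA1) and 1 for GSK484 against NT (PRIM2). The cause of the changes in TPM and after trend removal was not tested.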

Other observations

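Ratios of TPM between partner subunits were set side by side for pairs chosen after their values were seen, with no error beyond the single libraries. POLD2 was 19.1 times POLD3 in NT, 20.8 in CON and 19.97 under GSK484, and MCM7 was 4.03, 4.43 and 4.51 times MCM6. RRM2 was 3.54 times RRM1 in NT, 3.67 in CON and 3.30 under GSK484. In the clamp loader, RFC4 was 4.22 times RFC1 in NT, 6.90 in CON and 4.91 under GSK484. CDT1 was 0.40 times GMNN in NT, 0.42 in CON and 0.49 under GSK484. TPM ratios depend on the estimated effective lengths, and that of CDT1 was 2918 bases in CON and 2653 in GSK484. In CPM, CDT1 was level between these libraries (log2 fold 0.00). TOP2A was 0.84 times MCM5 in NT, 0.50 in CON and 0.62 under GSK484.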
